A study of Mus musculus with 6 samples.

Results

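The genes examined here encode the ligands and receptors of the vascular endothelial growth factor (VEGF) family. They were chosen by symbol, as Vegfa, Vegfb, Vegfc, Pgf, Flt1, Kdr, Flt4, Nrp1 and Nrp2, and each had 1 row among the 31130 genes of every count table. The 9 genes comprise 4 ligands, 3 receptor tyrosine kinases and 2 co-receptors. RNA was sequenced from tumor tissue of 3 mice with lung cancer alone (LC model) and 3 mice with lung cancer on top of interstitial pneumonia (IP + LC model), which were set against each other. All 6 were wild-type female C57BL/6 mice, 6 to 8 weeks old at the start, which had received cells of the mouse line Lewis lung carcinoma (LLC) in the left lung on day 14 and whose tumors were taken on day 21. The IP + LC mice had in addition been given bleomycin, a drug that injures the lung, at 2.0 mg/kg 14 days before the cells, whereas the sources used here do not say whether the LC mice were given a vehicle. Tumors were grown from a single cell line in the lung of the host, and each library stands for 1 tumor.

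VEGF ligands are secreted proteins that drive the growth and permeability of vessels. VEGF-A, from Vegfa, acts on endothelial cells mainly through VEGFR2, the product of Kdr, while VEGFR1, the product of Flt1, binds VEGF-A, VEGF-B and placental growth factor and acts largely as a decoy. VEGF-C acts on lymphatic endothelium through VEGFR3, the product of Flt4, and neuropilins, from Nrp1 and Nrp2, are co-receptors for VEGF ligands and for class 3 semaphorins. In the healthy lung, type 1 alveolar cells are a main source of VEGF-A, and the capillary endothelium carries its receptors. Neuropilins are also found on cells other than endothelium, macrophages among them.

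The regions just before the start sites of the 4 genes that changed are shown because these genes carry the differences between the models. They are the 250 bases before the first start that RefSeq lists on GRCm38.p6, 5′ to 3′ in the direction of the gene, with matches of AGGAAG (a site of ETS factors, which are active in endothelium), ACGTG and GCGTG (the core bound by hypoxia-inducible factors) and GGGCGG (the GC box of SP1) on either strand in capitals. Kdr lies at chr5:75978456-75978705 on the minus strand, Flt1 at chr5:147726012-147726261 on the minus strand, Vegfa at chr17:46032378-46032627 on the minus strand and Nrp2 at chr1:62703067-62703316 on the plus strand.
Kdr: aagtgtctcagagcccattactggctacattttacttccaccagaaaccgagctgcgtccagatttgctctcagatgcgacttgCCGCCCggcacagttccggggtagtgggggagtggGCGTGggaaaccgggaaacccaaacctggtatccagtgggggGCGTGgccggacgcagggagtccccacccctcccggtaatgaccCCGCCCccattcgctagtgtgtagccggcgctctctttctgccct
Flt1: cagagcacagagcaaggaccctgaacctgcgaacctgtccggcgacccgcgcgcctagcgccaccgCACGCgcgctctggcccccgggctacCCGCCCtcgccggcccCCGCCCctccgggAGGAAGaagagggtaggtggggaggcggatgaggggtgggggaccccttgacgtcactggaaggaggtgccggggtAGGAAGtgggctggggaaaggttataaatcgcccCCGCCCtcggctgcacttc
Vegfa: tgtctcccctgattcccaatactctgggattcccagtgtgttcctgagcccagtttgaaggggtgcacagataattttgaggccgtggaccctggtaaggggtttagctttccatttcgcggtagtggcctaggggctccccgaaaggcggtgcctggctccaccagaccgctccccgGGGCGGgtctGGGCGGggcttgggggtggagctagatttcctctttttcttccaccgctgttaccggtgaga
Nrp2: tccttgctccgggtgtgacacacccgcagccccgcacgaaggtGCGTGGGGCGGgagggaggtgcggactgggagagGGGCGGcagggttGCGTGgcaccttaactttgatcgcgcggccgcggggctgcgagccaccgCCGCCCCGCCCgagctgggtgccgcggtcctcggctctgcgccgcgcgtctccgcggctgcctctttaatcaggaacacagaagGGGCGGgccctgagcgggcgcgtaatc
The letters AGGAAG were found 2 times before Flt1, and 0 times before Kdr, Vegfa and Nrp2, against 29.5% of 32817 promoter windows of the same length with at least 1 match. The shorter ETS core GGAA, not marked in capitals, is in 93.4% of the windows. It was found 4 times before Kdr, 4 before Flt1, 6 before Vegfa and 1 before Nrp2. GCGTG was found 2 times before Kdr, 1 time before Flt1 and 2 times before Nrp2, against 28.1% of the windows, and ACGTG, which 16.6% of the windows hold, was in none of these 4. Vegfa had neither form of the hypoxia core in this window. The window before a second start that RefSeq lists for Vegfa, at chr17:46025164-46025413 on the minus strand, had 1 match of each form. That window lies inside the span of the gene, chr17:46016993-46032369. Its letters thus belong to the gene body and are not read here as a promoter. The GC box was found in all 4, with 2 matches before Kdr, 3 before Flt1, 2 before Vegfa and 5 before Nrp2, a pair of which share 1 base, and 32.7% of the windows had at least 1. The first windows of the family outside these 4 held it too. There were 4 matches before Vegfb, 2 before Vegfc, 2 before Pgf, 3 before Flt4 and 1 before Nrp1. GCGTG was found 2 times before Vegfb, 1 time before Pgf and 1 time before Nrp1, and AGGAAG 1 time before Nrp1. These letters were thus not particular to the genes that changed. These matches describe letters and not bound sites.

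The genes other than the 4 with a printed promoter lie on GRCm38 as follows. Vegfb is at chr19:6982473-6987651, Vegfc at chr8:54077606-54187096 and Pgf at chr12:85166635-85177790. Flt4 is at chr11:49609263-49652739 and Nrp1 at chr8:128358604-128503363. The genes with a printed promoter span chr17:46016993-46032369 (Vegfa), chr5:147561604-147726011 (Flt1), chr5:75932827-75978458 (Kdr) and chr1:62703285-62818695 (Nrp2). In the GENCODE M21 annotation, exons of other genes overlapped only those of Nrp1, over 0.818% of its exonic length (Mir1903).

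The LC libraries held 592733 to 1379759 unique molecular identifiers (UMIs, each 1 counted molecule) and the IP + LC libraries 1336919 to 1631066. Levels are given as counts per 1000000 UMIs after TMM scaling (CPM), on which 3 UMIs, taken as the limit of detection, were 5.17 in LC replicate 1 and 1.75 to 2.54 in the other 5 libraries. LC replicate 1 stood apart, with a correlation across genes of 0.799 to 0.84 with the other LC tumors, which had 0.962 with each other. Its correlation with the IP + LC tumors was 0.796 to 0.822, so it was about as like that group as its own. The labels name lung cancer cells as the cell type, but the tissue also held host lung, since the level of the type 2 alveolar gene Sftpc was 27466 CPM on average in LC tumors and 6347 CPM in IP + LC tumors.

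**Figure D1:**
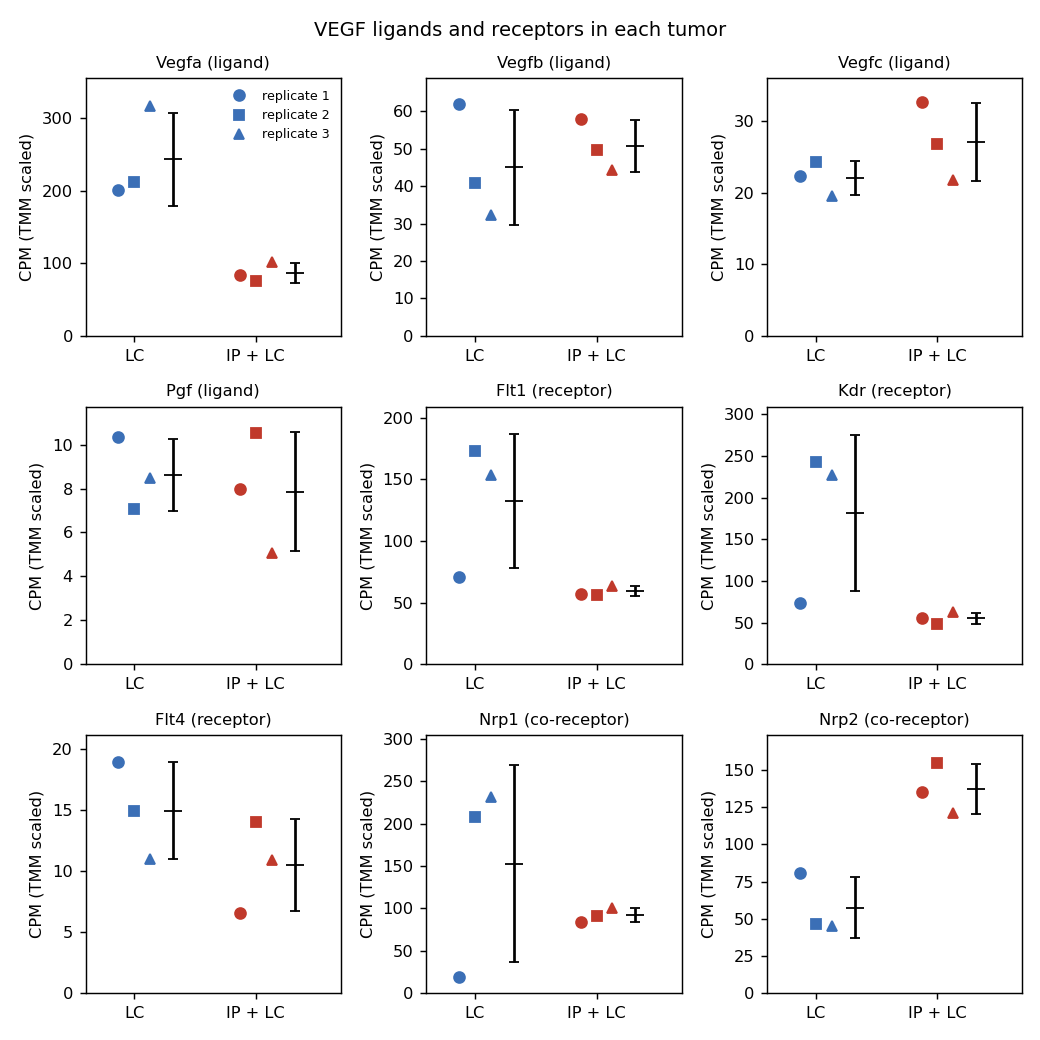
Level of each of the 9 genes in each tumor, as CPM after TMM scaling on a linear axis that starts at 0. Symbols stand for the 3 replicates of a group (blue, LC; red, IP + LC), and the bar beside them is the mean ± SD (n = 3). Vegfa, Flt1 and Kdr were lower in all IP + LC tumors, Nrp2 was higher in all of them, and the other 5 genes overlapped between the groups.

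Of the 9 genes, Vegfa, Flt1 and Kdr were significantly lower in the IP + LC model, Nrp2 was significantly higher, and Vegfb, Vegfc, Pgf, Flt4 and Nrp1 did not pass the test. The limit was an adjusted p-value of 0.1 in edgeR's quasi-likelihood test over the 11240 genes with enough UMIs, with Benjamini-Hochberg adjustment. Over all genes tested, 19.6% were lower and 16.8% were higher at this limit, or 36.4% in either direction. With 3 lower and 1 higher of 9, the share of the family that changed was not far from that background, so the counts alone say little about the family. The median log2 fold change was -0.43 over the 9 genes and 0.02 over all genes tested. By role, it was 0.08 for the ligands, -1.18 for the receptor tyrosine kinases and 0.26 for the co-receptors.

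Among the ligands, Vegfa was at 201, 212 and 316 CPM in LC replicates 1, 2 and 3, and at 83.4, 75.3 and 102 CPM in the IP + LC replicates. The lowest LC tumor was above the highest IP + LC tumor. The mean fell from 243 ± 63.5 to 87.0 ± 13.9 CPM (SD, n = 3), 2.79-fold higher in the LC group, with a log2 fold change of -1.49 ± 0.25 (standard error, SE, edgeR adjusted p = 0.00354). In bulk tissue, fewer cells of a type and less RNA per cell cannot be told apart, which holds for every gene here. The groups did not overlap in 43.1% of all genes tested, and 21.5% were lower in every IP + LC tumor.

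The remaining ligands did not follow Vegfa. Vegfb, which encodes a ligand of VEGFR1, was at 62.0, 40.7 and 32.2 CPM in the LC tumors and 58.0, 49.6 and 44.3 CPM in the IP + LC tumors. LC replicate 1 was the highest of all 6 tumors and the other LC tumors the lowest, so the groups overlapped (log2 fold change 0.22, SE 0.27, edgeR adjusted p = 0.572). Without LC replicate 1, the log2 fold change of Vegfb was 0.48 and passed the limit (adjusted p = 0.0668 from edgeR). It was 0.01 without LC replicate 3 (adjusted p = 0.984 from edgeR), so its size rested on single tumors. Vegfc, which encodes the main lymphatic ligand, had 22.4, 24.3 and 19.5 CPM in the LC tumors and 32.6, 26.8 and 21.8 CPM in the IP + LC tumors. Its levels lay close together in all 6 tumors and overlapped, with a log2 fold change of 0.30 (SE 0.25, edgeR adjusted p = 0.416). Pgf, which encodes placental growth factor, was near the limit of detection, with 6 to 10 UMIs in the LC and 7 to 18 UMIs in the IP + LC tumors. A difference was not detectable for Pgf at this depth (log2 fold change -0.06, SE 0.39, edgeR adjusted p = 0.963).

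Both receptors for VEGF-A fell. Kdr was at 74.0, 243 and 227 CPM in the LC tumors and at 55.1, 49.0 and 62.4 CPM in the IP + LC tumors. LC replicate 1 was far below the other LC tumors but still above every IP + LC tumor. The mean fell from 181 ± 93.3 to 55.5 ± 6.72 CPM (SD, n = 3), 3.27-fold apart (log2 fold change -1.73, SE 0.39, edgeR adjusted p = 0.0124). Without LC replicate 1 it was -2.08.

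Flt1 had 70.6, 173 and 153 CPM in the LC tumors and 57.3, 56.6 and 63.9 CPM in the IP + LC tumors. The order of the tumors was like that of Kdr, with LC replicate 1 the lowest LC tumor and every IP + LC tumor lower still. The mean of Flt1 fell 2.23-fold, from 132 ± 54.4 to 59.3 ± 4.03 CPM (SD, n = 3), with a log2 fold change of -1.18 (SE 0.31, edgeR adjusted p = 0.0220). Without IP + LC replicate 2 it was -1.12 and did not pass the limit (adjusted p = 0.109 from edgeR). Flt4, the receptor for VEGF-C, had 11, 19 and 13 UMIs in the LC tumors against 9, 24 and 15 UMIs in the IP + LC tumors, or 14.9 ± 3.96 and 10.5 ± 3.76 CPM (SD, n = 3). The groups overlapped and Flt4 did not pass (log2 fold change -0.43, SE 0.37, edgeR adjusted p = 0.418).

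The neuropilins differed from each other. Nrp2 was at 80.9, 46.2 and 44.9 CPM in the LC tumors and at 136, 155 and 121 CPM in the IP + LC tumors. Every IP + LC tumor was above every LC tumor, which was so for 21.6% of all genes tested. The mean rose from 57.4 ± 20.4 to 137 ± 16.8 CPM (SD, n = 3), 2.39-fold (log2 fold change 1.30, SE 0.26, edgeR adjusted p = 0.00823).

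Nrp1 had 18.9, 208 and 231 CPM in the LC tumors and 84.1, 91.1 and 100.2 CPM in the IP + LC tumors. LC replicate 1, with 11 UMIs of Nrp1, was below all IP + LC tumors, while the other LC tumors were above all of them. With all tumors, Nrp1 had a log2 fold change of -0.77 (SE 0.61, edgeR adjusted p = 0.378), and without LC replicate 1 it was -1.25 (edgeR adjusted p = 5.28e-06). It was -0.51 without LC replicate 2 and -0.40 without LC replicate 3, and did not pass in either fit. The call for Nrp1 therefore rested on LC replicate 1.

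On the log2(CPM + 4) scale, the difference of LC replicate 1 from the mean of the other LC tumors was -3.28 for Nrp1, and 0.294% of the genes tested had a difference this low. The difference was -1.62 for Kdr and -1.17 for Flt1, whereas Nrp2 was 0.78 and Vegfb 0.71 higher in LC replicate 1. Long transcripts as a whole were lower in LC replicate 1, with a median difference of -0.62 for genes whose longest transcript has 5354 nucleotides or more and 0.33 for those with 1903 or fewer. The longest annotated transcripts of Kdr (5924 nucleotides) and Flt1 (6895) are in the former class, but so is that of Nrp2 (6723), which was higher, while that of Nrp1 (3645) is in neither. The part of length in these values was not tested.

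**Figure D2:**
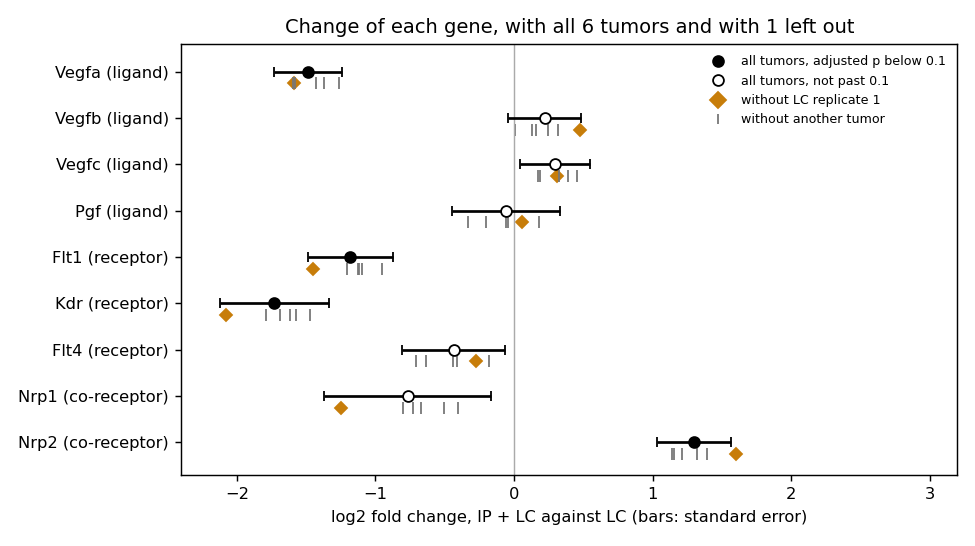
Log2 fold change of each gene in the IP + LC model against the LC model (x axis). Circles are the fit with all 6 tumors, filled when the adjusted p-value was below 0.1, and horizontal bars are the standard error. Orange diamonds leave out LC replicate 1 and gray ticks leave out each other tumor. Every gene but Pgf kept its direction in all of these fits, and Nrp1 moved from -0.77 to -1.25 without LC replicate 1.

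Whether the ligand changed more than its receptor was examined within each tumor, as a ratio of UMIs that does not depend on the scaling of the library. The ratio of Vegfa to Kdr was 2.70, 0.871 and 1.39 in the LC tumors and 1.51, 1.53 and 1.64 in the IP + LC tumors. The IP + LC values lay inside the range of the LC values, and the difference on the log2 scale was 0.07 (exact permutation test, two-sided, p = 0.8). Over 4 ligand to receptor ratios the adjusted p was also 0.8 in this exact test, and 0.1 is the smallest p that 3 tumors against 3 allow. The size and sign of this difference rested on single LC tumors, since it was 0.50 without LC replicate 1, where every IP + LC ratio lay above both remaining LC ratios, and -0.31 without LC replicate 2. Whether Vegfa or Kdr fell more could therefore not be told from these tumors.

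The ratio of Vegfa to Flt1 was 2.83, 1.22 and 2.06 in the LC tumors and 1.45, 1.33 and 1.60 in the IP + LC tumors, which overlapped (difference -0.40, exact permutation p = 0.4, adjusted 0.533), and the difference was -0.12 without LC replicate 1 and -0.73 without LC replicate 2. The ratio of Vegfc to Flt4, which pairs the lymphatic ligand with its receptor, was 1.17, 1.62 and 1.74 in the LC tumors and 4.79, 1.90 and 1.97 in the IP + LC tumors. All IP + LC values were above all LC values, with a difference of 0.81 (exact permutation p = 0.1, adjusted 0.4), although the highest, in IP + LC replicate 1, came from only 9 UMIs of Flt4 and the difference was 0.38 without this tumor. Pgf to Flt1 overlapped between the groups (difference 0.86, exact permutation p = 0.3, adjusted 0.533), with 1.41 without LC replicate 1 and 0.48 without LC replicate 2. The summed ligands were 1.81, 0.658 and 0.961 times the 3 summed receptor tyrosine kinases in the LC tumors and 1.53, 1.36 and 1.26 times in the IP + LC tumors, without separation of the groups. The difference of this summed ratio was 0.40 on the log2 scale, 0.79 without LC replicate 1 and 0.07 without LC replicate 2.

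The receptors were next set beside the endothelium that carries them. Of 20 endothelium markers, none of them a VEGF receptor, 20 were lower and 0 were higher in the IP + LC model, with a median log2 fold change of -1.71 that lies close to the -1.73 of Kdr. Among them were Pecam1, the adhesion molecule CD31, with a log2 fold change of -1.66, Cldn5, a claudin of endothelial tight junctions, with -2.26, and Clec14a, an endothelial surface lectin, with -2.85 (adjusted p = 0.00134, 0.000909 and 0.000716 from edgeR). Their summed level ranged from 3150 to 4962 CPM in the LC tumors and from 925 to 1200 CPM in the IP + LC tumors, and none of the markers was at 0 throughout. Markers of general capillary cells (5 of 5 tested lower, median -1.93) and of aerocytes, the capillary cells of gas exchange (4 of 5 lower, median -2.41), also fell, although only 3 of the 5 general capillary markers were called without LC replicate 2. Of the lymphatic list, 3 of 6 genes had enough UMIs for the test and 2 were lower (median -1.41), while Prox1 had 0 to 9 UMIs and Ccl21a 0 to 1 UMIs per tumor. The part of the number of endothelial cells in the fall of Kdr and Flt1 was not tested.

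Relative to the summed endothelium markers, Kdr was at 0.0238, 0.0490 and 0.0524 in the LC tumors and at 0.0504, 0.0533 and 0.0523 in the IP + LC tumors. All but LC replicate 1 were close together, and the difference on the log2 scale was 0.40 (exact permutation test, two-sided, p = 0.3, adjusted 0.35 over 7 such ratios) and 0.04 without LC replicate 1. Flt1 was at 0.0227, 0.0350 and 0.0354 of the markers in the LC tumors and at 0.0524, 0.0615 and 0.0535 in the IP + LC tumors. The IP + LC values of Flt1 were all above the LC values, by 0.87 on the log2 scale (exact permutation p = 0.1, adjusted 0.175). The same held relative to Pecam1 alone, where Flt1 differed by 0.59 (exact permutation p = 0.1, adjusted 0.175) and Kdr by 0.12 (exact permutation p = 1). Without LC replicate 1, these values were 0.29 for Flt1 and -0.33 for Kdr, which thus changed its sign. Every IP + LC tumor thus had more Flt1 for its endothelium markers than every LC tumor, but with a smallest possible p of 0.1 this cannot reach 0.05.

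For Nrp1, the ratio to the summed endothelium markers was 0.00629, 0.0419 and 0.0534 in the LC tumors and 0.0767, 0.0988 and 0.0838 in the IP + LC tumors. Relative to these markers it was thus higher in every IP + LC tumor, by 1.83 on the log2 scale and by 0.86 without LC replicate 1 (exact permutation p = 0.1 with all tumors, adjusted 0.175). Nrp2 was at 0.0260, 0.00939 and 0.0104 in the LC tumors and at 0.123, 0.168 and 0.101 in the IP + LC tumors, a difference of 3.23 (exact permutation p = 0.1, adjusted 0.175). Flt4 overlapped (difference 1.38, exact permutation p = 0.2, adjusted 0.28).

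Levels of other cell types moved together with these genes. The summed markers of type 1 alveolar cells ranged from 2581 to 5381 CPM in the LC tumors and from 1053 to 1542 CPM in the IP + LC tumors, with 6 of 8 genes lower, 0 higher and a median log2 fold change of -1.48. The number of these genes called lower was 7 without LC replicate 1, and 4 without IP + LC replicate 2 or IP + LC replicate 3. The ratio of Vegfa to these markers was 0.0594, 0.0821 and 0.0588 in the LC tumors and 0.0671, 0.0718 and 0.0666 in the IP + LC tumors. The groups overlapped in this ratio and differed by 0.05 on the log2 scale, but without LC replicate 2 the difference was 0.21 and every IP + LC tumor lay above both remaining LC tumors. Relative to the summed endothelium markers, Vegfa was at 0.0642, 0.0427 and 0.0729 in the LC tumors and at 0.0761, 0.0817 and 0.0856 in the IP + LC tumors, all above the LC values, with a difference of 0.47 that was 0.24 without LC replicate 2. Markers of type 2 alveolar cells were lower in 5 of 6 cases (median -1.92), and their summed level was 34446 to 43018 CPM in the LC and 6039 to 11142 CPM in the IP + LC tumors. Among neutrophil markers, 2 of 4 were lower, S100a8 with a log2 fold change of -2.39 and S100a9 with -2.66, while the other 2 did not pass the limit. The sum of all 4 neutrophil markers was 660 to 1737 CPM in the LC and 127 to 289 CPM in the IP + LC tumors. Pericyte markers were lower in 2 of 5 cases (median -0.99), but in 0 without IP + LC replicate 1 and in 1 without IP + LC replicate 3. Of 5 fibroblast markers, 3 were lower and 2, Col1a1 and Col1a2, were higher, but the call for Col1a2 did not hold without LC replicate 3 or without IP + LC replicate 2.

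The summed macrophage markers were 2316, 857 and 616 CPM in the LC tumors and 2311 to 2923 CPM in the IP + LC tumors. Of the 8 macrophage genes, 4 were higher and 0 lower, with a median log2 fold change of 0.93, and the count rested on single tumors, with 7 higher without LC replicate 1 and fewer than 4 without each of the other 5 tumors. LC replicate 1 was at the level of the IP + LC tumors for these markers and had the highest Nrp2 of the LC group. The ratio of Nrp2 to the macrophage markers was 0.0353, 0.0544 and 0.0735 in the LC tumors and 0.0588, 0.0530 and 0.0461 in the IP + LC tumors, which overlapped, with a difference of 0.01 on the log2 scale whose sign rested on single tumors (-0.27 without LC replicate 1 and 0.26 without LC replicate 3). Cycling markers also rose, with 4 of 5 genes higher and sums of 99.5 to 381 CPM in the LC and 866 to 1027 CPM in the IP + LC tumors. The number of cycling genes called higher was 5 without LC replicate 1 and 3 when any other tumor was left out. The part of any of these cell types in the levels of Vegfa, Kdr, Flt1 and Nrp2 was not tested. The ratio of Nrp2 to Nrp1 was 4.13 in LC replicate 1, 0.224 and 0.196 in the other LC tumors and 1.21 to 1.70 in the IP + LC tumors. Nrp1 exceeded Nrp2 in UMIs in LC replicates 2 and 3 alone. These ratios with alveolar and macrophage markers, of Vegfa to endothelium markers and between the neuropilins were chosen after the values had been seen and carry no test.

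**Figure D3:**
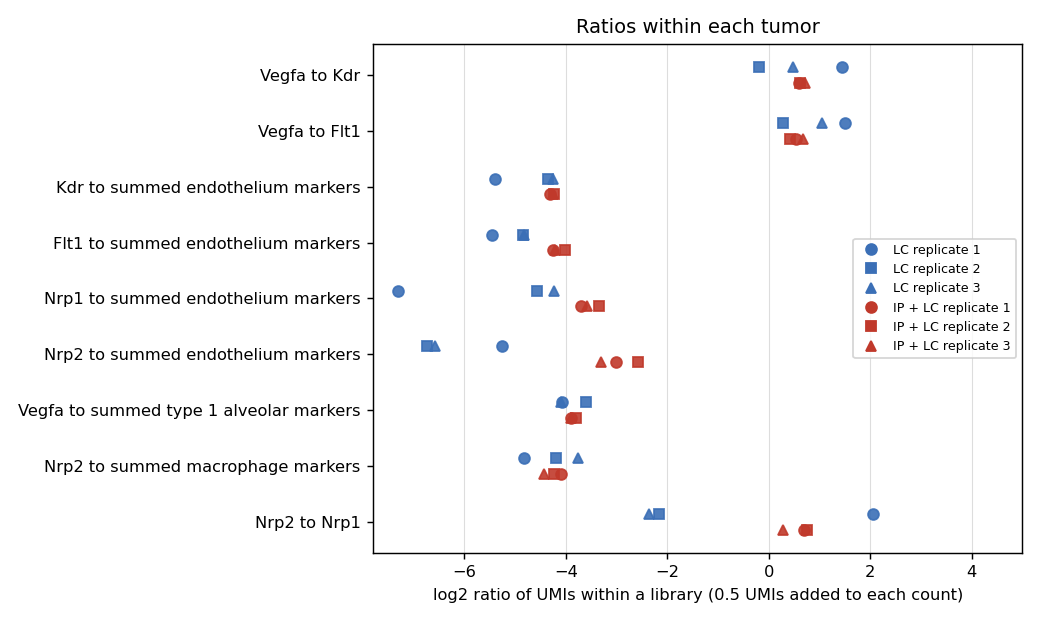
Ratios of UMIs within each tumor on a log2 axis, with 0.5 UMIs added to each count. Blue symbols are the LC and red symbols the IP + LC tumors, with 1 shape per replicate. Vegfa to Kdr and Vegfa to type 1 alveolar markers overlapped between the groups, Flt1, Nrp1 and Nrp2 were all higher relative to the endothelium markers in the IP + LC tumors, and LC replicate 1 lay apart from the other LC tumors in several rows.

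The rest of the pathway was read from lists of 76 genes, of which 68 had enough UMIs. Of these, 6 were higher and 22 were lower in the IP + LC model, with a median log2 fold change of -0.16, against the 16.8% higher and 19.6% lower of all genes tested. Of the 28 calls, 19 held without each tumor in turn and 8 were lost without IP + LC replicate 2. The 35 genes of signaling inside the cell, from phospholipase C gamma to the kinases of the ERK and AKT branches, were tested in 33 cases, with 4 higher, 3 lower and a median of 0.14, where 36.4% of all genes were called. Without LC replicate 1, 9 of these were higher and 10 lower, where 57% of all genes were called, and without LC replicate 2, LC replicate 3 or IP + LC replicate 2 the number higher was 1. The higher genes were Nras, a RAS GTPase (1.09), Sh2d2a, an adaptor that binds VEGFR2 (1.09), Rac1, a GTPase of cell migration (0.71), and Src, a tyrosine kinase (0.69). Of these, only the call for Nras held without each tumor in turn. The lower genes were Hspb1, a small heat shock protein downstream of p38 (-1.70), Mapk3, the kinase ERK1 (-0.97), and Nck1, an adaptor (-0.97). Akt1 had a log2 fold change of 0.27 and Plcg1 of -0.49, and neither passed the limit (adjusted p = 0.477 and 0.166 from edgeR).

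The genes that act beside the receptors on endothelium fell with Kdr. All 7 tested genes of this list of 8 were lower, with a median of -1.70. They included Efnb2, the ligand ephrin-B2 that takes part in the uptake of VEGF receptors (-2.58), Dll4, a Notch ligand of tip cells (41.3 CPM in the LC and 10.4 CPM in the IP + LC group), Ptprb, the endothelial phosphatase VE-PTP (-1.93), Notch4 (-1.70) and Cdh5, VE-cadherin (-1.43). Among angiopoietins and Tie receptors, Tek, the receptor TIE2, fell by 2.60 on the log2 scale, and Angpt1, its ligand, fell by 1.67, while Angpt2, with -0.79, did not pass (adjusted p = 0.174 from edgeR). Several of these genes are themselves in the endothelium list, so both counts share genes.

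Of 11 tested class 3 semaphorins and plexins, the other ligands and partners of neuropilins, 5 were lower and 0 higher, with a median of -0.80. The lower ones were Sema3g (-2.74), Sema3c (-2.23), Sema3f (-1.51), Sema3d (-1.21) and Sema3b (-1.12). All 5 were ligands, and the 4 tested plexins had log2 fold changes from -0.80 to 0.26 without passing the limit. Sema3f, which encodes a ligand of neuropilin-2, fell from 64.1 to 22.4 CPM, opposite in direction to Nrp2. The calls for Sema3b and Sema3d did not hold when some single tumors were left out, whereas Sema3c, Sema3f and Sema3g passed without each tumor in turn. Without LC replicate 1, 8 of the 11 were lower, and 3 were lower when LC replicate 3, IP + LC replicate 2 or IP + LC replicate 3 was missing.

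Of the genes that VEGF-A induces in endothelium, 5 of 8 were tested, 2 were lower and 0 higher (median -0.53), with 4 lower without LC replicate 1 and 1 lower without LC replicate 2 or IP + LC replicate 2. The lower ones were the immediate early genes Nr4a1 (-1.46) and Egr1 (-0.85), which many other stimuli also induce and of which Egr1 was not called without LC replicate 2, IP + LC replicate 1 or IP + LC replicate 2, and Rcan1, Apln and Adamts1 had values from -0.53 to 0.18 and did not pass. On the lymphatic side, Vegfd, a second ligand of VEGFR3, fell from 45.7 ± 8.02 to 20.5 ± 5.14 CPM (log2 fold change -1.16, adjusted p = 0.0124 from edgeR). Ccbe1, whose product aids the cleavage of VEGF-C, was higher (1.81, adjusted p = 0.0264 from edgeR), a call that did not hold without LC replicate 2 or without IP + LC replicate 2.

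The factors that act on Vegfa itself moved in both directions. Of 6 genes, Epas1, which encodes HIF-2α and is abundant in endothelium, fell from 659 ± 209 to 173 ± 50.8 CPM (log2 fold change -1.93, adjusted p = 0.00365 from edgeR). Hif1a had a log2 fold change of 0.79, opposite to Vegfa, but the call did not hold without LC replicate 2 or without IP + LC replicate 2. Arnt, Vhl, Egln1 and Egln3, which encode the partner and the regulators of these factors, had values from 0.01 to 1.21 and did not pass the limit.

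**Figure D4:**
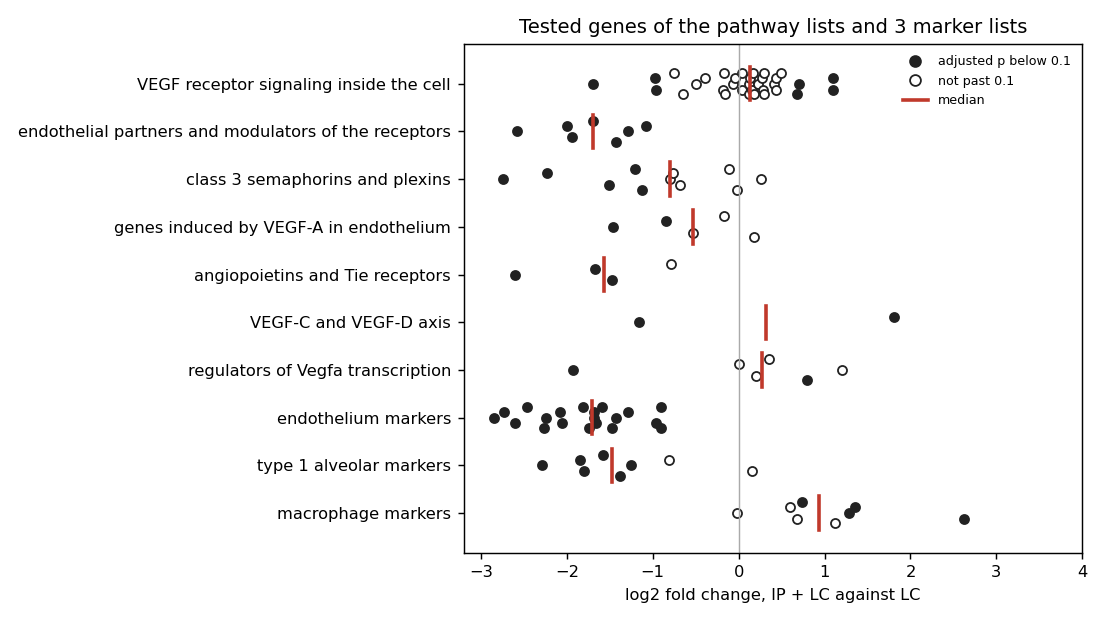
Log2 fold changes of the tested genes of 7 pathway lists and 3 marker lists in the IP + LC model against the LC model. Each point is 1 gene, filled when the adjusted p-value was below 0.1, and red lines are medians. Signaling genes inside the cell lay around 0 (median 0.14), whereas the endothelial partners (median -1.70), Tie receptors and endothelium markers (median -1.71) lay below it and the macrophage markers above it (median 0.93).

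Over the 6 tumors, the genes most like Kdr in log2(CPM + 4), among 7858 genes with a mean of at least 20 CPM, were Cdh5 and Flt1 (Pearson's r of 0.998 for each), Ptprb (0.998), Trib2 (0.996) and Ift81 (0.996). Cdh5 and Ptprb are endothelial genes, and Flt1 is a receptor of the same family as Kdr. For Vegfa they were Snn (0.998), Mal2 (0.997), Cetn3 (0.997), Slc44a3 (0.997) and Tspan2 (0.995), and no endothelium marker was among them. With 6 tumors in 2 groups such values are common, since 238 genes had r above 0.95 with Kdr and 339 with Vegfa, and the points share the libraries and their depth.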

How the data were processed

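Tumor tissue was homogenized in TRIzol, RNA was purified, and libraries were made from oligo-dT primed cDNA with a UMI of 10 nucleotides, so that reads come from the 3′ end. Per the labels and the study's methods, the authors extracted UMIs with UMI-tools 1.1.1, trimmed with Trim Galore 0.6.7, aligned to GRCm38 with HISAT2 2.2.1, assigned reads to genes with featureCounts 2.0.1 and counted every different UMI per gene. The deposited values are these counts, without normalization, in 1 table per tumor. The annotation release and strand setting are not given in the sources used here.

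The analysis ran in R 4.3.3. In edgeR 4.0.16, filterByExpr set the genes that were tested (minimum count 10, minimum total 15, 3 libraries), TMM set the scaling, and the quasi-likelihood test compared the groups over all 11240 of these genes, with Benjamini-Hochberg adjustment and a limit of 0.1, as the study used. CPM are after TMM scaling. Ratios used UMIs plus 0.5 and an exact permutation test over the tumors. Since a UMI marks a molecule, SDs include the error of sampling molecules.

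The genes, the lists of pathway genes and markers, and the tests were chosen with earlier results of these data known. Besides the 9 genes, up to 4 called genes of each list with the largest change (and 10 or more UMIs in all tumors of the group where they were higher), the 3 most abundant endothelium markers, and the 5 genes most like Kdr and Vegfa were taken for naming, of which those most useful are named; Src, Rac1, Nck1, Akt1, Plcg1, Sema3d, Angpt2, Cdh5, Pecam1, Rcan1, Apln, Adamts1, Prox1, Ccl21a, Col1a2 and the untested or uncalled regulators of Vegfa were named after their values were seen. Alternatives were scaling by library size only, by upper quartile or by DESeq2 size factors, a stricter and no filter on low counts, tests by limma 3.58.1 with voom and by DESeq2 1.42.0, a replicate block, a limit of 0.05, thinning to the smallest library (seed 1) and leaving out each tumor. Promoters came from the RefSeq table for GRCm38.p6, in which all 9 genes were found. Each library is 1 tumor per the study, and the labels do not number the mice, so p-values measure the spread between these tumors.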

Additional observations from a re-analysis of the deposited data

How the results depend on the processing

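The calls for Vegfa, Kdr and Nrp2 held in all 16 settings, the reported one included, with log2 fold changes from -1.59 to -1.26, from -2.08 to -1.47 and from 1.14 to 1.60. Flt1 passed in 15 of 16 (from -1.45 to -0.95), and Vegfb and Nrp1 passed in 1 setting each, without LC replicate 1. Vegfc passed in 0 of 16 settings, and Pgf and Flt4 in 0 of the 14 that could test them, since a filter of at least 10 UMIs in every library and thinning left 7 of the 9 genes. The number of genes of the family called higher was 1 to 2 when each tumor was left out in turn (2 without LC replicate 1) and the number called lower was 2 to 4 (4 without LC replicate 1, 2 without IP + LC replicate 2). Over all genes, 4088 were called with all tumors, from 2265 (without IP + LC replicate 2) to 6691 (without LC replicate 1) when a tumor was left out, with 2585 when LC replicate 2 and 2660 when IP + LC replicate 1 was the missing tumor, and 2413 after thinning. The cause was not tested. Library size only moved the median log2 fold change of all genes by 0.16, and the split of calls to 2520 higher and 1800 lower against 1885 and 2203, and no filter on low counts moved the median by 0.12. The sources used here do not say whether the replicate numbers pair the tumors, which were treated as unpaired. Deviations from the group means correlated by 0.026, -0.12 and 0.112 for the 3 numbers. Some tumors, but not every one, were nearest to their own number. With the replicate block, 1 gene of the family was higher and 3 were lower, and 3410 genes were called in all. Pgf had 6 to 18 and Flt4 9 to 24 UMIs per tumor, with SEs of 0.39 and 0.37, against 0.25 for Vegfa.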
